A study of Drosophila melanogaster with 12 samples.

Results

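The comparison set 3 hours of a dark subjective day against the same 3 hours of the lit day before it, in adult heads of the y w strain of Drosophila melanogaster. Arrays were chosen by their labels alone. Those of hours 2, 6 and 10 after subjective lights-on in constant darkness (DD) formed the dark day, and those of hours 2, 6 and 10 after lights-on in the light/dark cycle (LD) formed the lit day. This took 6 of the 12 arrays of the series, 3 in each group. The 6 night arrays, 3 from the DD night and 3 from the LD night at hours 14, 18 and 22, belonged to neither group. They were used to set the day difference beside the night difference, to follow single genes over the series, and in 1 alternative estimate of the spread. They also entered the mean level over all 12 arrays that chose the brightest probe set of each gene and marked the brighter probe sets. Every fly carried the y and w mutations, which alter the colour of the body and remove the pigment that screens the eye, and no other allele or agent was named. All had first lived through 3 days of 12 h light and 12 h darkness. The dark-day flies had then passed 1 more full LD cycle before the lights stayed off, so darkness and the later day cannot be told apart. Each array came from 1 pool of about 100 to 200 heads, and age and sex were not given. The 3 hours of a day stood in as replicates, so the spread within a group holds change over the day as well as technical spread. Whether the pools came from separate cultures is not stated, so each p-value reflects only how these arrays vary, which may be technical.

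Light reaches the fly head through the photoreceptors of the eye, where rhodopsins start the phototransduction cascade, and through cryptochrome, which resets the clock protein Timeless. The head also holds cuticle-forming epidermis, which can go on adding cuticle in young adults, and fat body, which makes antimicrobial peptides under the Toll and Imd pathways. In these pools of whole heads, fewer cells of a type and less RNA per cell cannot be told apart.

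Levels are log2 values, in which 1 unit is a doubling, and differences are dark day minus lit day. The 3 dark-day arrays were alike, with r between 0.9934 and 0.9948 across 13966 probe sets, and the 3 lit-day arrays were less so (0.9763 to 0.9881). The array of LD hour 6 stood apart from its group. It correlated with the dark-day arrays at 0.9853 to 0.987 and with the other two lit-day arrays at only 0.9763 and 0.9767. In 9368 probe sets (67.1%) it lay nearer to the dark-day mean than to the mean of LD hours 2 and 10. The median SD of a probe set was 0.0836 in the dark day and 0.136 in the lit day. RNA quality was judged from 3 control transcripts, as the level of their 5′ probe sets minus that of their 3′ probe sets (5′/3′ signal), which averaged −1.57 ± 0.06 in the dark day and −1.77 ± 0.24 in the lit day (SD, n = 3 each). LD hour 2 had the lowest signal of the 6 arrays (−2.02), and that of LD hour 6 (−1.53) lay among the dark-day arrays. Counts of calls, and list medians that moved by over 1.5 times, are also given without it.

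In the dark day, 8 named genes fell and 2 rose. Acp1, which encodes an adult cuticle protein, fell furthest, and the cuticle protein genes Cpr100A and Cpr97Eb fell with it. The genes that rose were tan, whose enzyme frees dopamine and histamine from beta-alanine conjugates, and Cyp4d21, a cytochrome P450 gene with male-biased expression. In all, 11 of 13966 probe sets passed limma with Benjamini-Hochberg adjustment at 0.05 (0.0788%), 2 higher (0.0143%) and 9 lower (0.0644%), and 1151 had an unadjusted p under 0.05 (8.24%). By gene this was 10 of 10844 (0.0922%), 2 higher (0.0184%) and 8 lower (0.0738%). Differences of at least 1 log2 numbered 18 higher and 41 lower. Of these, 9 and 39 had groups that did not overlap, which held for 6.32% (higher) and 7.99% (lower) of all probe sets.

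**Figure D1:**
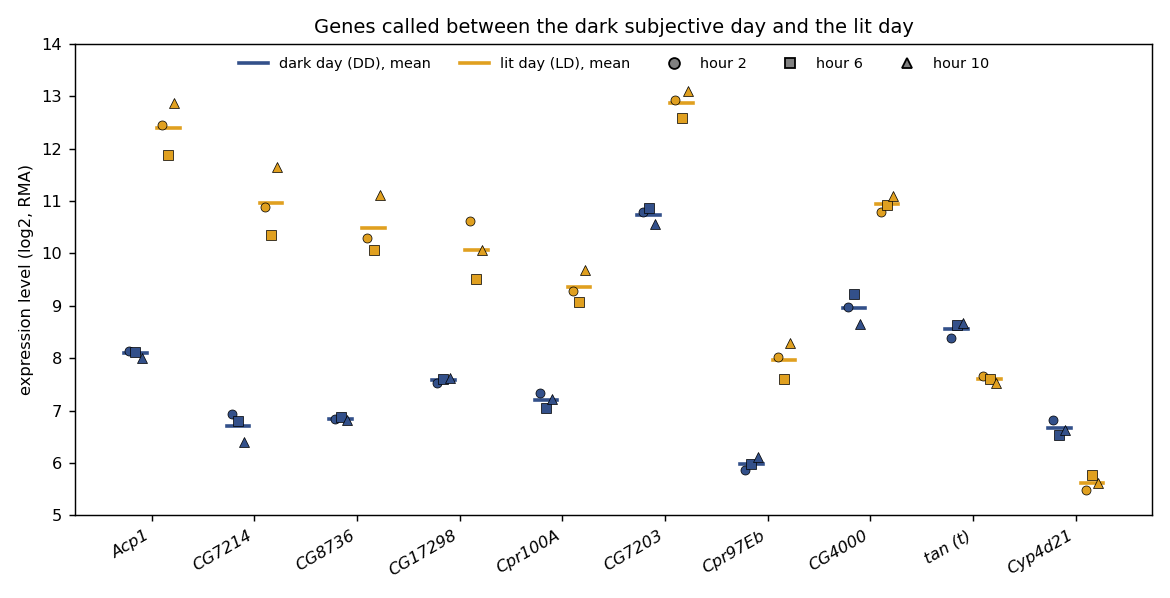
Levels (log2, RMA) of the 10 genes called, with the dark-day arrays in blue on the left of each pair and the lit-day arrays in yellow on the right. Markers give the hour of day and bars the mean of 3 arrays; for every gene the 3 dark-day arrays lie on one side of the 3 lit-day arrays, and Acp1 and CG7214 differ most.

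Acp1 stood at 8.15, 8.11 and 8.01 at hours 2, 6 and 10 of the dark day, against 12.46, 11.88 and 12.87 at those hours of the lit day. It thus lay in the middle of the scale in the dark and near its top, which was 13.9, in the light. The difference was −4.31 ± 0.22 (SE), a 19.9-fold lower level (limma, adjusted p = 0.00203). CG7214 had 6.92, 6.79 and 6.41 in the dark day and 10.88, 10.36 and 11.65 in the lit day. Its difference was −4.25 ± 0.31 (limma, adjusted p = 0.0055), 19.1-fold. CG8736 was nearly flat in the dark day, at 6.84, 6.87 and 6.83, against 10.29, 10.07 and 11.11 in the lit day (−3.65 ± 0.24, limma, adjusted p = 0.0055). In none of these 3 genes did the groups come within 3 log2 of each other.

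The other named genes that fell had differences of −2.49 to −1.98. CG17298 had 7.53, 7.60 and 7.62 in the dark day, against 10.62, 9.52 and 10.07 in the lit day (−2.49 ± 0.25, limma, adjusted p = 0.0258). Cpr100A, of the family of cuticle proteins with a chitin-binding domain, had 7.33, 7.04 and 7.22 in the dark day, against 9.29, 9.08 and 9.69 in the lit day (−2.16 ± 0.16, adjusted p = 0.00572). Cpr97Eb, of the same family, had 5.86, 5.99 and 6.10 in the dark day, against 8.02, 7.60 and 8.29 in the lit day (−1.99 ± 0.17, adjusted p = 0.0111). These 3 genes were lowest in the light at hour 6, and the gap between the groups was still more than 1 log2. CG7203 was abundant on both days, with 10.79, 10.86 and 10.56 in the dark day and 12.93, 12.58 and 13.11 in the lit day (−2.14 ± 0.15, adjusted p = 0.0055). CG4000 had 8.97, 9.23 and 8.66 in the dark day, against 10.78, 10.93 and 11.10 in the lit day (−1.98 ± 0.16, adjusted p = 0.00649). CG4000 alone among the 8 was not lowest at hour 6 of the lit day. The remaining probe set that fell has no gene name here. It had 6.38, 6.37 and 6.30 in the dark day and 9.96, 9.31 and 8.59 in the lit day (−2.93 ± 0.30, adjusted p = 0.0277).

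The number of probe sets that passed changed with the array left out. It was 13 without LD hour 2, 379 without LD hour 6, 21 without LD hour 10, 5 without DD hour 2, 7 without DD hour 6 and 0 without DD hour 10. In the last case 654 still had an unadjusted p under 0.05 (limma), and the smallest adjusted p among the 10 genes was 0.0517, for Acp1. Acp1, CG7203, CG7214, CG8736 and Cpr100A passed when any 1 of the other 5 arrays was left out. CG4000 passed in 4 of the 6, Cpr97Eb in 3, CG17298 in 2, and tan and Cyp4d21 only without LD hour 6. With hour of day as a block Acp1, CG8736 and Cpr100A passed and the other 7 did not. With the spread of all 12 arrays Acp1, CG7214 and CG17298 passed and the other 7 did not. With the 5′/3′ signal as covariate tan and Cyp4d21 did not pass. The sizes moved little, between −4.57 and −4.08 for Acp1 and between 0.91 and 1.05 for tan.

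By their median, most of the fall of the 8 genes lay between LD hours 14 and 22. Whether it followed the light was not tested. The median of the 8 genes relative to their lit-day mean was −0.01 at LD hour 2, −0.40 at hour 6, 0.33 at hour 10 and 0.36 at hour 14. It was −0.68 at LD hour 18 and −1.83 at LD hour 22. It then stood between −2.49 and −2.23 in all 6 DD arrays. CG17298 had its largest step between LD hours 10 and 14, where it stood at 10.07 and 8.12. CG8736, Cpr97Eb and Cpr100A had theirs between LD hours 14 and 18, and CG7203, CG7214 and CG4000 between LD hours 18 and 22. Acp1 alone had its largest step, −2.33, between LD hour 22 and DD hour 2. It had fallen by nearly the same size (−2.39) from LD hour 10 to LD hour 22. In the step from LD hour 22 to DD hour 2, CG7214 moved by −1.91 and the remaining genes by −0.99 to −0.01. None of the 8 regained its lit-day level at any DD hour. CG4000 came nearest, at 10.10 at DD hour 22 (−0.84 relative to its lit-day mean).

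**Figure D2:**
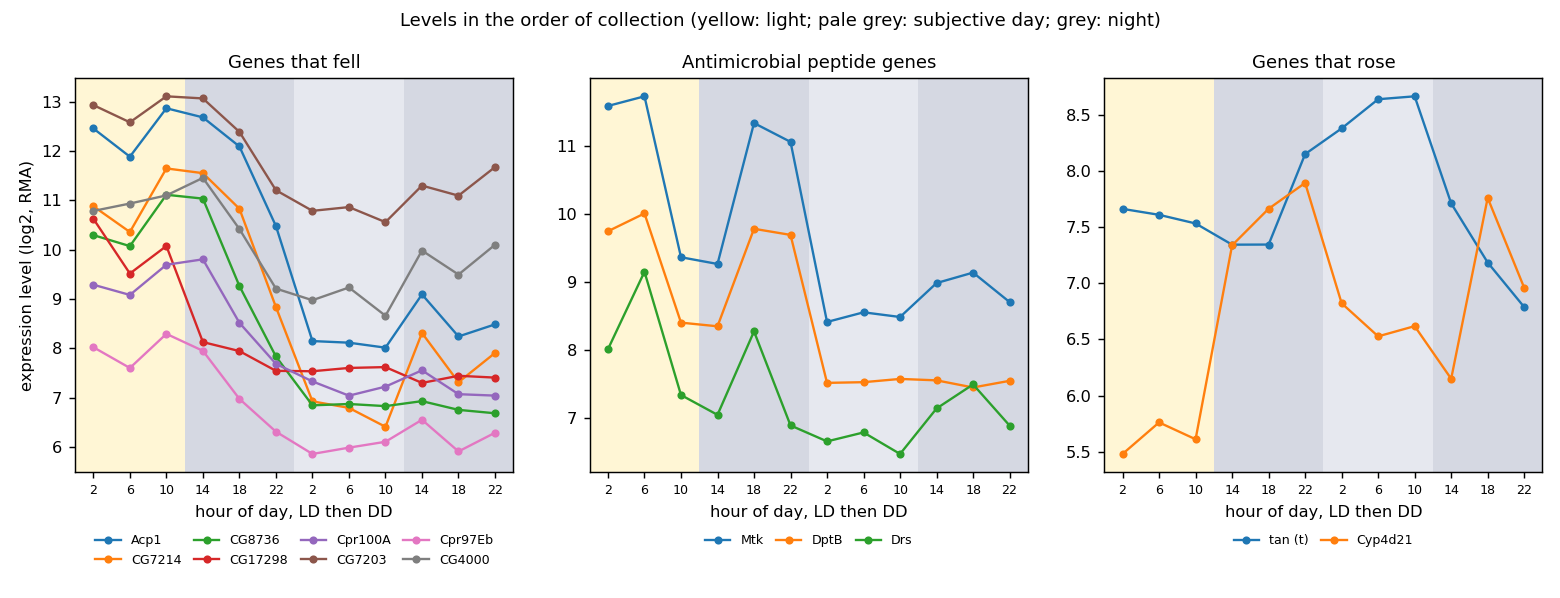
Levels (log2, RMA) of the genes that fell, of 3 antimicrobial peptide genes and of the 2 genes that rose, over the 12 arrays in order of collection, from LD hour 2 to DD hour 22; each point is 1 array and shading marks light, subjective day and night. The genes that fell have declined by LD hour 22 and stay below their lit-day means through DD, whereas Cyp4d21 is highest at LD hour 22.

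The same 8 genes were also lower in the DD night than in the LD night, with differences from −3.15 (Acp1) to −0.49 (CG17298). Of these night differences, those of Acp1 (−3.15, limma, adjusted p = 0.0228), CG8736 (−2.59, 0.0468) and CG7214 (−2.56, 0.0447) passed, as did 2.08% of all probe sets. Both nights were dark at collection, but the DD-night flies had also gone without a lit day, so darkness and the later day cannot be told apart here either. For CG17298, which already stood at 8.12 at LD hour 14, the day difference less the night difference was −2.0 ± 0.32 (limma, adjusted p = 0.0214). For the other 7 genes it lay between −1.69 and −0.71 and did not pass (limma, adjusted p from 0.200 to 0.552).

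Some of these genes are neighbours in the genome. In the RefSeq gene order Acp1 and CG7214 are adjacent, and CG7203 follows with 1 gene between. That gene, ATPsynGL, stood at 4.92 in the dark day and 4.97 in the lit day on average (−0.05, limma, adjusted p = 0.860). The nearest measured genes on the outer sides were CG13796, with 3.60 in the dark day and 3.97 in the lit day, and CG7191, with 5.57 in the dark day and 5.63 in the lit day. In both the groups overlapped. Among 28 genes compared (the lower genes called or named for their size, and the cuticle genes lower without overlap), CG4000 and Cpr92F, Cpr97Ea and Cpr97Eb, and Vajk2 and Vajk3 were also adjacent pairs. Cpr97Ea had 6.90, 6.89 and 6.74 in the dark day, against 7.69, 7.30 and 8.11 in the lit day, a difference of −0.86 beside the −1.99 of Cpr97Eb.

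Across the cuticle protein list, 114 genes were measured, 3 fell (0.0738% of all genes did) and none rose. The groups did not overlap in 20 genes that were lower in the dark day (17.5%, against 7.36% of all genes) and in 1 that was higher (0.877%, against 6.93%). The median over the list was −0.06 (−0.01 over all genes), −0.11 without LD hour 6 and −0.01 with the 5′/3′ signal as covariate. Of 58 Cpr genes 12 were lower without overlap, including Cpr92F (−1.63), Cpr62Bc (−1.30) and Cpr49Ae (−0.86), none of which passed (limma, adjusted p from 0.207 to 0.378). Of the 4 Vajk genes 2 were, and Vajk3 had 5.63, 5.71 and 5.27 in the dark day against 7.49, 7.77 and 8.91 in the lit day (−2.52 ± 0.34, limma, adjusted p = 0.0971). Of the 7 chitin-binding obstructor genes, obst-A and obst-B were lower without overlap (−1.24 and −0.49) and 1 was higher, with a median of −0.03. Of 20 Tweedle genes 1 was lower without overlap, and of the 4 Ccp84 and 5 Lcp genes none was. These counts are too small to set apart from the 7.36% of all genes. Cpr65Ea was the most positive member (1.00, limma, adjusted p = 0.630), with 6.53, 7.58 and 5.32 in the dark day and 5.58, 5.45 and 5.41 in the lit day, so the groups overlapped. The genes Cpr92F, Cpr62Bc, Cpr49Ae, Cpr97Ea, Cpr65Ea, obst-A and obst-B were chosen after their values were seen.

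Beyond the called genes, those with the largest differences and no overlap were named by rule. CG5172 had 5.25, 5.20 and 5.33 in the dark day against 8.58, 7.56 and 9.35 in the lit day (−3.23 ± 0.39, limma, adjusted p = 0.0547). CG11458 had 9.12, 8.34 and 8.60 in the dark day against 11.20, 10.22 and 11.34 in the lit day (−2.24 ± 0.32, adjusted p = 0.116). In both, hour 6 was the lowest of the lit day. CG4461 (1.38), CG10680 (1.28), Acsx3 (1.21), Npl4 (1.17) and Nepl15 (1.14) were higher in the dark day, and none passed (limma, adjusted p from 0.327 to 0.525). In all of these hour 6 was the highest of the lit day, and there CG10680 differed by only 0.10. The dimmer probe set of Nepl15 differed by −0.02 with groups that overlapped. Others under this rule, in both directions, are given elsewhere in the text.

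tan had 8.38, 8.64 and 8.67 in the dark day, against 7.66, 7.61 and 7.53 in the lit day. The difference was 0.96 ± 0.10 (limma, adjusted p = 0.0277), and it was 0.72 at hour 2, 1.03 at hour 6 and 1.13 at hour 10. The dark-day arrays held the 3 highest tan levels of the series, since LD hour 22 followed at 8.15 and the DD night lay between 6.79 and 7.71. ebony (e), whose enzyme makes the beta-alanine conjugates that the tan enzyme splits, lay the other way. It had 6.46, 6.15 and 6.22 in the dark day against 6.54, 7.47 and 6.71 in the lit day (−0.63 ± 0.23, limma, adjusted p = 0.550). That difference rested mainly on hour 6 (−1.33), with −0.08 at hour 2 and −0.485 at hour 10. It was −0.35 without LD hour 6. Among 40 pigment and yellow family genes measured, tan was the only one called (0.0922% of all genes were). Without overlap 4 were higher (10%, against 6.93% of all genes) and 6 lower (15%, against 7.36%). Pu, which encodes GTP cyclohydrolase, the first enzyme towards pteridines, had 7.16, 7.42 and 7.39 in the dark day and 8.32, 7.75 and 8.37 in the lit day (−0.83 ± 0.17, limma, adjusted p = 0.305). yellow-d2 differed by −0.49 and ras by −0.35, neither past the threshold (adjusted p = 0.437 and 0.541).

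Cyp4d21 had 6.82, 6.53 and 6.62 in the dark day, against 5.48, 5.76 and 5.61 in the lit day (1.04 ± 0.11, limma, adjusted p = 0.0309). The lit-day arrays were the lowest 3 of the series. The gene stood between 7.34 and 7.90 in the LD night and between 6.15 and 7.76 in the DD night, so the dark-day level lay below that of the LD night. Cytochrome P450 genes include enzymes of detoxification and hydrocarbon and hormone synthesis. Of 87 measured, Cyp4d21 was the only one called (0.0922% of all genes were). The groups did not overlap in 14 that were higher (16.1%, against 6.93% of all genes) and in 3 that were lower (3.45%, against 7.36%). The median was 0.08, and 0.04 with the 5′/3′ signal as covariate. Cyp4g1, which makes the hydrocarbons that waterproof the cuticle, had 7.34, 5.71 and 7.56 in the dark day and 5.53, 5.55 and 5.20 in the lit day (1.44 ± 0.44, limma, adjusted p = 0.503). Its difference was 0.16 at hour 6, so it rested on the other hours. Cyp6a9 differed by 0.63 and Cyp12b2 by 0.51 (adjusted p = 0.446 and 0.473). Of 68 glucuronosyltransferase and glutathione transferase genes, 9 were higher (13.2%) and 5 lower (7.35%) without overlap. Ugt36E1 came nearest to the threshold, with 5.26, 5.29 and 5.35 in the dark day and 4.75, 4.63 and 4.72 in the lit day (0.60 ± 0.07, limma, adjusted p = 0.0677).

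Of 10 antimicrobial peptide genes measured, 3 were lower by more than 1 log2 and without overlap (30%, against 7.36% of all genes), 0 were higher without overlap, and none passed. Metchnikowin (Mtk), active against fungi and bacteria, had 8.41, 8.55 and 8.49 in the dark day, against 11.59, 11.74 and 9.37 in the lit day (−2.41 ± 0.57, limma, adjusted p = 0.393). Diptericin B (DptB) had 7.52, 7.53 and 7.57 in the dark day, against 9.75, 10.01 and 8.40 in the lit day (−1.85 ± 0.37, adjusted p = 0.279). Drosomycin (Drs), an antifungal peptide, had 6.65, 6.79 and 6.47 in the dark day, against 8.01, 9.15 and 7.34 in the lit day (−1.53 ± 0.40, adjusted p = 0.437). In all 3 the dark day was even and hour 10 was the lowest of the lit day. Mtk was high again at LD hours 18 and 22 (11.34 and 11.06) and stood at 8.99, 9.14 and 8.71 in the DD night. The other 7 had groups that overlapped. Listericin differed by −0.27, AttD by −0.13, CecB by −0.06, BomS2 by −0.05, Drsl6 by 0.01 and Def by 0.00, and these 6 were chosen after their values were seen. The list median was −0.10, and −0.16 without LD hour 6. Drsl5 differed by 0.87, with groups that overlapped (8.57, 8.78 and 8.57 in the dark day, against 7.02, 8.99 and 7.29 in the lit day).

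Some genes that act upstream of the peptides lay the other way. The NF-kappaB gene Relish (Rel), of the Imd pathway, had 6.32, 6.47 and 6.37 in the dark day, against 5.77, 6.01 and 5.85 in the lit day (0.51 ± 0.09, limma, adjusted p = 0.248). dorsal (dl), of the Toll pathway, had 5.01, 5.55 and 5.19 in the dark day, against 4.37, 4.50 and 4.62 in the lit day (0.75 ± 0.15, adjusted p = 0.263). The sensor of fungal glucans GNBP3 differed by 0.51 and the receptor gene Toll (Tl) by −0.42 (adjusted p = 0.355 and 0.382), again without overlap. Of 32 genes of immune recognition and signalling, 4 were higher (12.5%, against 6.93% of all genes) and 2 lower (6.25%, against 7.36%) without overlap, and none was called.

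No gene of phototransduction passed among 20 measured. Differences were negative in 14 and positive in 6, with a median of −0.10 (−0.04 with the 5′/3′ signal as covariate), and 3 were higher (15%, against 6.93% of all genes) and 2 lower (10%, against 7.36%) without overlap. The gene of arrestin 2 (Arr2), which ends the activity of rhodopsin, had 12.34, 12.52 and 12.52 in the dark day, against 12.10, 12.21 and 12.10 in the lit day (0.32 ± 0.08, limma, adjusted p = 0.437). inaD, which encodes the scaffold of the cascade, had 8.70, 8.65 and 8.55 in the dark day, against 7.73, 8.34 and 8.07 in the lit day (0.58 ± 0.15, adjusted p = 0.437). rdgC, whose product dephosphorylates rhodopsin, had 5.50, 5.91 and 6.0 in the dark day, against 5.37, 5.40 and 5.30 in the lit day (0.45 ± 0.13, adjusted p = 0.486). PIP5K59B, which encodes a phosphatidylinositol phosphate kinase, had 6.14, 6.11 and 6.26 in the dark day, against 6.61, 6.29 and 6.47 in the lit day (−0.29 ± 0.10, adjusted p = 0.539). All 9 measured genes of the visual chromophore pathway had positive differences, between 0.05 and 0.40, with a median of 0.25. Without overlap 1 was higher (11.1%, against 6.93% of all genes). This was the scavenger receptor gene santa-maria (0.26), and ninaB, which encodes the enzyme that cleaves carotenoids, had the largest difference (0.40, limma, adjusted p = 0.620). Their median was 0.02 at hour 6, against 0.31 at hour 2 and 0.46 at hour 10. Over the list the median was 0.37 without LD hour 6 and 0.10 with the 5′/3′ signal as covariate, and leaving out 1 array gave 0.14 to 0.37. Of 11 photoreceptor genes measured, 8 lay above the median level of all probe sets, a rough check of the head label, since probe sets differ in brightness.

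Among core clock and light input genes no difference was called. Of 18 measured, only the phosphatase gene Pp1-87B (0.32) was higher without overlap (5.56%, against 6.93% of all genes). The list median was −0.03 (−0.05 without LD hour 6). timeless (tim) had 5.57, 5.56 and 6.34 in the dark day and 5.58, 5.72 and 6.88 in the lit day (−0.24 ± 0.37, limma, adjusted p = 0.860). vrille (vri) had 6.42, 6.87 and 7.68 in the dark day and 6.52, 6.97 and 7.69 in the lit day (−0.07 ± 0.38, adjusted p = 0.964). Both were highest at hour 10 on each day, so most of their spread lay between hours. period differed by −0.14, cry by 0.15 and Clk by 0.13 (adjusted p from 0.686 to 0.815). The fit had no term for hour, so these standard errors and p-values also hold the change over the day. Taken at hours 2, 6 and 10, the differences were −0.103, −0.102 and −0.005 for vri. Those of tim were −0.01, −0.158 and −0.545. None of this shows that the levels were equal.

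Genes of protein synthesis lay higher in the dark day more often than lower, although none was called. Of 31 cytosolic ribosomal protein genes measured, 11 were higher without overlap (35.5%, against 6.93% of all genes) and none was lower, with a median of 0.23. RpL10Ab had 11.98, 11.96 and 12.22 in the dark day, against 11.27, 11.73 and 11.42 in the lit day (0.58 ± 0.14, limma, adjusted p = 0.385). RpL3 had 12.27, 12.34 and 12.29 in the dark day, against 12.04, 11.85 and 12.14 in the lit day (0.29 ± 0.09, adjusted p = 0.514). Of 64 mitochondrial ribosomal protein genes, 11 were higher (17.2%) and 1 lower (1.56%, against 7.36% of all genes) without overlap, with a median of 0.11 (0.06 with the 5′/3′ signal as covariate), and mRpL39 differed most of those named (0.50, adjusted p = 0.511).

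Among 49 translation factor genes 9 were higher (18.4%, against 6.93% of all genes) and 1 lower (2.04%, against 7.36%) without overlap. The median was 0.15, and 0.04 without LD hour 6. Of the 9, 7 were subunits of eIF3, the factor that brings the small ribosomal subunit to messenger RNA, out of 16 eIF3 genes measured, a split made after the values were seen. eIF3e had 8.90, 8.86 and 9.19 in the dark day, against 7.72, 8.27 and 8.34 in the lit day (0.87 ± 0.18, limma, adjusted p = 0.283). eIF3m had 9.20, 9.18 and 9.20 in the dark day, against 8.35, 8.79 and 8.32 in the lit day (0.71 ± 0.13, adjusted p = 0.254). eIF3h had 10.11, 10.16 and 10.21 in the dark day, against 8.99, 9.42 and 9.77 in the lit day (0.76 ± 0.18, adjusted p = 0.393), but its dimmer probe set differed by −0.03 with groups that overlapped. The poly(A)-binding protein gene pAbp was the 1 that was lower (−0.79, adjusted p = 0.503), but its dimmer probe set differed by −0.38 with groups that overlapped. The 5′/3′ signal was higher on average in the dark day too (above), and the part of RNA quality in these differences was not tested gene by gene. With that signal as a covariate the median of the cytosolic ribosomal protein genes was 0.16.

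**Figure D3:**
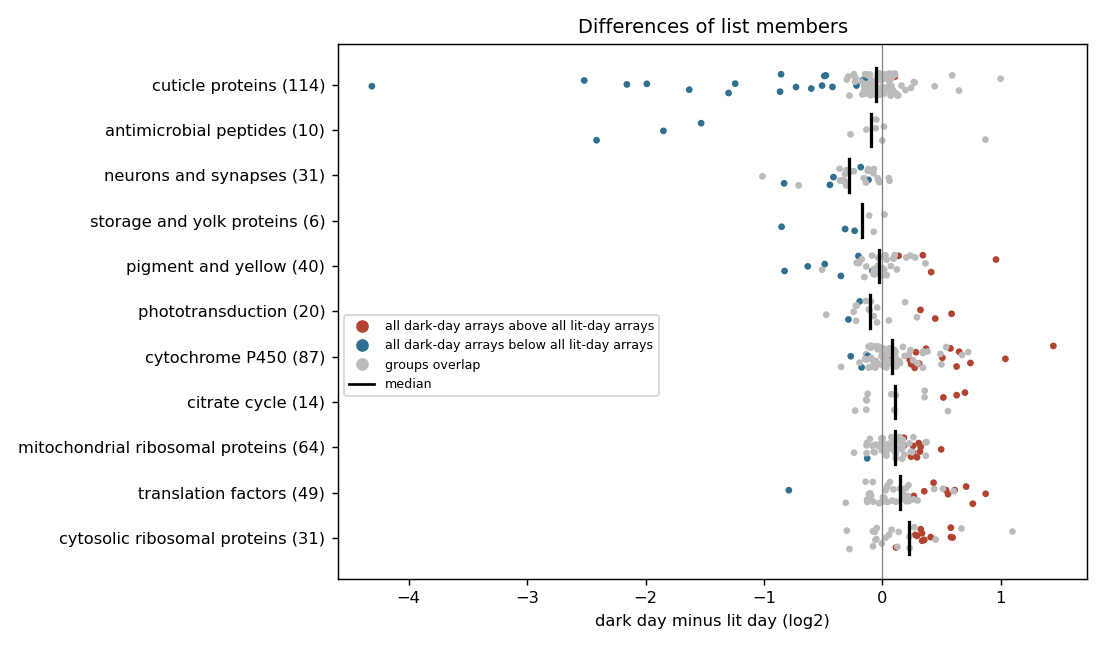
Differences, dark day minus lit day (log2), of the measured members of 11 gene lists, with list sizes in parentheses, 1 point per gene and a bar at the median. Red and blue points have groups that do not overlap; cuticle and neuronal genes have blue points to the left (20 and 8), and cytosolic ribosomal protein genes have red points to the right (11).

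Genes expressed in neurons lay lower in the dark day as a count. Of 31 measured, 8 were lower without overlap (25.8%, against 7.36% of all genes), none was higher and none was called, with a median of −0.28. Synapsin (Syn), of synaptic vesicles, had 3.19, 3.30 and 3.71 in the dark day, against 4.39, 4.24 and 4.05 in the lit day (−0.83 ± 0.15, limma, adjusted p = 0.254). The RNA-binding protein gene fne had 4.35, 4.30 and 4.14 in the dark day, against 4.64, 4.83 and 4.66 in the lit day (−0.44 ± 0.09, adjusted p = 0.320). VGAT, the vesicular transporter of GABA, differed by −0.30 and the GABA receptor gene Rdl by −0.28 (adjusted p = 0.482 and 0.5). Of the 31, 19 lay above the median level of all probe sets. Among those named here VGAT lay above it, and Syn, fne and Rdl lay below it. The list median was −0.15 with the 5′/3′ signal as covariate and −0.17 without LD hour 6. Of 22 glial genes 1 was higher (4.55%, against 6.93% of all genes) and 2 lower (9.09%) without overlap. Likewise 2 of 11 photoreceptor genes were higher (18.2%), and 2 of 23 flight muscle genes were lower (8.7%). Of 14 fat body genes 1 was higher (7.14%) and 3 lower (21.4%), among them Lsp2, which encodes a storage protein (8.75, 8.90 and 8.87 in the dark day, against 9.28, 9.52 and 10.27 in the lit day).

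Markers of tissues from outside the head were set beside these results. Of 33 midgut genes 1 was higher without overlap (3.03%, against 6.93% of all genes). This was the lysozyme gene LysS (0.35 ± 0.07, limma, adjusted p = 0.275). The midgut mean was 6.36, 5.96 and 5.93 in the dark day, against 6.0, 5.93 and 6.05 in the lit day, so that DD hour 2 stood highest. There the protease gene Jon25Biii had 7.29, against 4.82 and 4.62 at the later dark hours and 4.48 to 4.98 in the lit day. The mean of 28 ovary and female genes was 6.71, 6.67 and 6.82 in the dark day and 6.64, 6.70 and 6.62 in the lit day. At DD hour 10 the dim gene osk had 5.835, against 3.65 to 4.74 in the other day arrays. There exu had 7.56, against 6.30 to 6.97. Sxl and ndl, of the same list, were not raised at that hour (5.77 and 2.81). The mean of 33 testis and male genes, which include Cyp4d21, was 4.63, 4.55 and 4.58 in the dark day and 4.61, 4.54 and 4.59 in the lit day. The part of other tissues in the called differences was not tested.

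Without LD hour 6, 379 probe sets passed (2.71%), 247 higher and 132 lower, and the 11 called with it were among them. That array was singled out for lying near the dark day, so leaving it out tends to widen differences and narrow the lit-day spread. The calls below rest on LD hours 2 and 10 alone for the lit day and are no separate support. Among cuticle genes 11 then fell (9.65%, against 0.812% of all genes) and none rose. Higher calls numbered 9 of 87 cytochrome P450 genes (10.3%, against 2% of all genes), 6 of 68 glucuronosyltransferase and glutathione transferase genes, 5 of 39 odorant-binding protein genes and 4 of 31 cytosolic ribosomal protein genes. Shares were similar for 3 of 22 glial genes (13.6%) and 4 of 32 genes of immune recognition and signalling (12.5%). Of 31 neuronal genes 3 were called lower (9.68%, against 0.812% of all genes). CG5172 (−3.70), CG11458 (−2.59), Vajk3 (−2.66) and Pu (−1.02) passed in this fit (limma, adjusted p from 7.99e-04 to 0.0229). So did the polyubiquitin gene Ubi-p63E (2.21, adjusted p = 0.00103), Drsl5 (1.48, 0.0033), the amino acid transporter gene path (1.41, 0.00313), eIF3m (0.86, 0.00444) and inaD (0.73, 0.0302). Ubi-p63E shows how LD hour 6 bears on this. It had 11.11, 11.25 and 11.12 in the dark day, against 9.15, 11.28 and 8.73 in the lit day. With all 6 arrays its difference was 1.43 ± 0.59 (limma, adjusted p = 0.588). LD hour 6 belongs to the lit day by its label, so the result with it stands as the main one.

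The day difference was then set against the night difference, DD night minus LD night, in a fit of 4 groups of 3 arrays. The difference between the 2 passed for 299 of 13966 probe sets (2.14%), 189 more positive by day (1.35%) and 110 more negative (0.788%). Among genes more positive by day were path, with 8.70, 8.65 and 8.55 in the dark day, against 7.08, 8.40 and 7.37 in the lit day. It differed by 1.02 by day and by −1.35 by night, and these differed by 2.37 ± 0.36 log2 (limma, adjusted p = 0.0210). The night thus gave the larger part. Of the 49 translation factor genes 6 were more positive by day (1.5% of all genes were) and 1 more negative (0.692%), and of 14 citrate cycle genes 4 were more positive, including Idh3g (1.91) and Idh3b (1.53), subunits of isocitrate dehydrogenase. More negative by day were CNBP, which encodes a nucleic acid-binding protein (−2.26, limma, adjusted p = 0.0217), the RNA export factor gene Ref1 (−1.83, 0.0179) and 3 of the 31 neuronal genes, the dim Syn (−1.34, adjusted p = 0.0179) among them. The night difference was also the larger for CNBP (−0.72 by day, 1.54 by night), Ref1 (−0.57 and 1.26), Idh3g (0.70 and −1.21) and Idh3b (0.63 and −0.90). For Syn the day difference was the larger (−0.83 and 0.51). Neither tan (1.34, limma, adjusted p = 0.0603) nor Cyp4d21 (1.71, 0.0608) passed. The 5′/3′ signal of the DD night was −2.29 ± 0.34, against −1.63 ± 0.11 in the LD night (SD, n = 3 each), so this measure of RNA quality moved with the contrast. With that signal as a covariate 0 probe sets passed and 958 had an unadjusted p under 0.05 (limma). Only 1 passed without DD hour 2, 1 without DD hour 6, 2 without DD hour 10, 12 without LD hour 18, 15 without LD hour 22, 19 without DD hour 22, 29 without LD hour 14 and 157 without LD hour 2. Without LD hour 6, 1349 did.

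**Figure D4:**
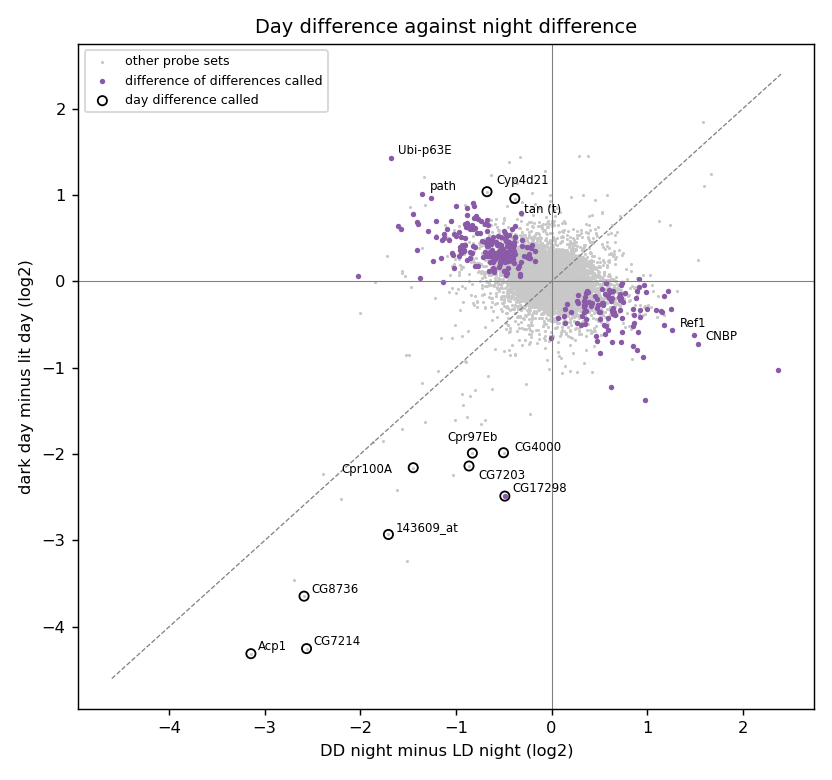
Day difference (dark day minus lit day, log2) against night difference (DD night minus LD night, log2) of 13966 probe sets, with circles for the 11 called by day, purple points for the 299 whose 2 differences were called unlike, and a dashed line where both are equal. Acp1, CG7214 and CG8736 are lower by day and by night, whereas 295 of the purple points lie on opposite sides of 0 in the 2 comparisons.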

How the data were processed

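Total RNA from pooled heads was labelled as biotinylated cRNA from 25 µg and hybridised to Affymetrix arrays, 1 for each time point, per the labels' protocols. The deposited values are log2 expression levels that the authors made with RMA, which corrects the background, normalizes by quantiles and gives 1 value for each probe set, per the submitters' processing notes. The RMA version and the set of arrays on which RMA was run are not given in the sources used here. Quantile normalization makes the arrays' overall levels nearly equal, so a shift of most genes at once could not be seen, and no raw intensities were analysed here.

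Of 14010 probe sets, 44 controls were set aside and 13966 tested, without a filter. Of these, 12443 carried 1 gene symbol, 327 several and 1196 none. Counts by gene and by list used the brightest probe set of each gene, which gave 10844 genes; the day less night calls are by probe set. Differences were fitted with limma 3.58.1 in R 4.3.3 on the 6 day arrays, without a term for hour, with p-values adjusted by Benjamini-Hochberg over 13966 probe sets. The day difference less the night difference came from all 12 arrays as 4 groups. The fits were tested on simulated data with 200 changed probe sets. Groups that do not overlap have all 3 dark-day arrays above, or all below, all 3 lit-day arrays.

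The named genes were those called, up to 12 per direction with the largest difference and no overlap among the brighter ones, up to 4 members per list with the smallest p, all clock genes measured, and up to 10 per direction for the day less night difference. The 36 lists held 1210 measured genes. They were described by counts and medians, not tested. The groups, lists and rules were chosen with earlier results of these data known, so they are no independent support. Gene order came from RefSeq names alone. The same-hour arrays deviated from their group means with correlations of 0.116, −0.0262 and −0.195 at hours 2, 6 and 10, so hours were not treated as pairs. These correlations are taken over probe sets as a whole. They cannot show that single genes do not follow the hour, as vri and tim did. Alternatives were an hour block, the spread of all 12 arrays, the brighter probe sets, quantile normalization again, centring, an intensity trend with a robust prior, the 5′/3′ signal as covariate, 1 probe set per gene, each gene by the mean over its probe sets, and leaving out each array.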

Additional observations from a re-analysis of the deposited data

Results flagged for a closer look

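The day difference and the night difference were not alike in 299 probe sets, of which 189 were more positive by day and 110 more negative, by the test of that difference (limma, adjusted p under 0.05). The values below are the day difference (dark day minus lit day) less the night difference (DD night minus LD night), in log2. A large value can come mostly from the night, as for the brighter Tret1-1 probe set (0.06 by day, −2.02 by night). It can also come mostly from the day, as for CG17298 (−2.49 by day, −0.49 by night). More positive by day were Ubi-p63E (3.11), path (2.37), both probe sets of the trehalose transporter gene Tret1-1 (2.25 and 2.08), CG4364 (2.24), the cathepsin gene CtsK1 (2.23), P5CDh1 of proline breakdown (2.18), Ttd14 (2.06), the isocitrate dehydrogenase subunit gene Idh3g (1.91), the spermine synthase gene Sms (1.88), CG7739 (1.73) and slmb (0.98), whose product marks clock and other proteins for destruction. More negative by day were CNBP (−2.26), CG17298 (−2.0), CG14989 (−1.83), Ref1 (−1.83), pAbp (−1.69), CG13551 (−1.68), side (−1.60), the helicase gene Rm62 (−1.57), the translocon subunit gene Sec61beta (−1.51) and jus (−1.49). For Ubi-p63E, Tret1-1, P5CDh1, Ttd14, Sms, slmb, Rm62 and jus the dark-day and lit-day arrays overlapped. The 2 dimmer probe sets of CNBP had day differences of −0.05 and 0.18. For Ttd14 the dimmer probe set had a day difference of 0.13, beside 0.66 for the one used. For pAbp these were −0.38 and −0.79, and for jus −0.50 and −0.59. In all 3 dimmer probe sets the groups overlapped. The value of side is from 1 of its 6 probe sets, not the brightest, with a day difference of −0.74. The other probe sets of side had day differences of −0.17, −0.16, −0.10, −0.02 and 0.02. With the 5′/3′ signal as covariate none of the 299 passed.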

How the results depend on the processing

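With 3 arrays a group the number of calls depended on the fit. For the day difference, 11 probe sets were called (2 higher, 9 lower), with 10 named genes and 5 list members among them. With hour of day as a block, 3 were called, 0 higher and 3 lower, all named genes (Acp1, CG8736 and Cpr100A) and 2 of them list members. The spread of all 12 arrays gave 5, 1 higher and 4 lower, with 3 named genes and 2 list members. An intensity trend with a robust prior left 1 higher call, and the 5′/3′ covariate left 0 higher calls and 3 list members. Counts stayed within 1.5 times with quantile normalization again, centring, the brighter probe sets and 1 probe set per gene. Leaving out each array gave 0 to 379 calls, 0 to 247 higher and 0 to 132 lower, with 0 to 20 named genes and 0 to 71 list members, the lowest without DD hour 10 and the highest without LD hour 6. For the day less night difference, 299 were called. The hour block gave 114, 91 higher and 23 lower, and the 5′/3′ covariate gave 0, 0 higher and 0 lower. Leaving out each array gave 1 to 1349 calls, 1 to 810 higher and 0 to 539 lower. None of the 10 called genes changed direction under any alternative. Clock genes near 0 did. With the 5′/3′ covariate Pdf stood at −0.00347, cyc at −0.0320 and tws at −0.0429. Leaving out each array gave −0.0305 to 0.104 for cyc, −0.0555 to 0.0805 for jet, −0.15 to 0.035 for Pdfr, −0.32 to 0.0198 for per, −0.50 to 0.17 for tim, −0.0803 to 0.20 for tws and −0.42 to 0.24 for vri. The causes of these shifts were not tested. Over probe sets as a whole, the hours shared by the days did not pair the arrays, though single genes such as vri followed the hour. The number of arrays limits what can pass, and no detection call was used for dim probe sets, such as that of Syn.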

Other observations

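No gene of energy metabolism was called in the lists that follow. Of all genes, 6.93% were higher and 7.36% lower without overlap. Of 14 citrate cycle genes 3 were higher without overlap (21.4%; Idh3g, Idh3b and ScsbetaA, by 0.52 to 0.70) and none was lower. Of 43 genes of carbohydrate use, fasting and feeding, 3 were higher (6.98%) and 2 lower (4.65%) without overlap. The gluconeogenic gene Pepck2 had 7.13, 6.88 and 7.02 in the dark day, against 6.46, 6.63 and 6.56 in the lit day (0.46 ± 0.09, limma, adjusted p = 0.275). The glycolytic gene Pglym78 had 10.27, 10.30 and 10.36 in the dark day, against 10.71, 10.68 and 10.81 in the lit day (−0.43 ± 0.08, adjusted p = 0.248). Oxidative phosphorylation genes had 6 higher (8.57%) and 2 lower (2.86%) of 70 without overlap, lipid genes 5 higher (13.5%) and 2 lower (5.41%) of 37, and proteasome genes 1 higher (2.94%) and 3 lower (8.82%) of 34. The neuropeptide-like precursor gene Nplp3 had 11.96, 11.66 and 11.38 in the dark day, against 12.38, 12.86 and 13.05 in the lit day (−1.09 ± 0.21, adjusted p = 0.254), and 1 of 31 neuropeptide and hormone genes was higher (3.23%) and 4 were lower (12.9%) without overlap.

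Among sensory genes, 4 of 124 odorant and gustatory receptor genes were higher (3.23%, against 6.93% of all genes) and 12 lower (9.68%, against 7.36%) without overlap. Most of them were dim, with 25 above the median level of all probe sets. Of 39 odorant-binding protein genes 2 were higher (5.13%) and 1 lower (2.56%), and Obp56g had 9.38, 9.25 and 9.43 in the dark day, against 8.65, 8.54 and 7.87 in the lit day (1.00 ± 0.20, limma, adjusted p = 0.275). Of 15 chaperone genes 3 were higher (20%) and 1, Hsp68, was lower (6.67%) without overlap (−0.51). Of 13 activity-regulated genes 2 were higher (15.4%) and 1 lower (7.69%), with MsrA, which repairs oxidised methionine, at 6.21, 6.44 and 6.27 in the dark day and 5.43, 5.91 and 5.75 in the lit day (0.60 ± 0.13, adjusted p = 0.349). Of 20 genes of photolyases and DNA repair 3 were higher without overlap (15%), by 0.16 to 0.19, and of 21 glutathione and oxidative stress genes none was separate. Of 26 potassium and sodium channel genes 2 were higher (7.69%) and 5 lower (19.2%) without overlap.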
